A study of Mus musculus with 18 samples.

Results

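The extracellular matrix of fat and liver is built by 3 families of genes that are described here: collagens, laminins and a set of glycoproteins, proteoglycans and cross-linking enzymes that assemble around them. Members were taken by symbol: every gene named as a collagen alpha chain (Col, a type number, a and a chain number) or as a laminin alpha, beta or gamma chain (Lama, Lamb or Lamc and a number), together with Lox, Loxl1, Loxl2, Fn1, Sparc, Fbn1, Bgn, Dcn, Lum and Postn. They numbered 65 of the 23474 gene identifiers of the table: 11 fibrillar collagens, 19 basement membrane genes (8 collagens and 11 laminins) and 35 others. Expression is given as FPKM, fragments scaled to the length of the transcript and to the mapped fragments of the library. To be tested in a tissue, a gene had to reach 1 FPKM in 3 or more of its 9 libraries, which 51 members did in epididymal fat and 26 in liver; 25 passed in both tissues, 26 in fat alone, Col13a1 in liver alone, and 13 in neither. No member had passed through the libraries of a single group. In liver, though, Col1a1 and Col16a1 reached 1 FPKM in 1 ND, 3 HP and 0 HR libraries (groups defined below), and Col6a2 in 1, 2 and 0. Their liver tests therefore rest on the HP libraries.

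Polyadenylated RNA of epididymal fat (abbreviated eWAT) and of liver was profiled in male mice, described as C57BL/6J in the growth protocol and as C56BL/6J in the strain field. The mice were 17 weeks old after 12 weeks on their diets. Normal-diet mice are called ND. Mice on a high-fat diet were labelled prone (HP) or resistant (HR) to it, and the labels do not say how these were told apart, nor whether the libraries of a group are different mice. There were 3 libraries in each of the 6 groups, and library 1 of ND in eWAT is written eWAT ND 1.

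Fibrillar collagens assemble into the banded fibrils that give a tissue its tensile strength, and lysyl oxidases join them covalently. Basement membranes are thinner sheets of type IV collagen and laminin, a trimer of an alpha, a beta and a gamma chain, and each adipocyte is wrapped in one. Healthy liver has little basement membrane along its sinusoids, and its fibrillar collagen is known to be made mostly by stellate cells and portal fibroblasts.

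Promoter windows are given for 3 members on which the results turn. They are the 250 bases before the RefSeq start site (GRCm38.p6) of 2 fibrillar collagen genes that were higher in HP in both tissues and of Lamb3, a laminin chain whose differences had opposite signs in the 2 tissues. They run 5′ to 3′ on the strand of the gene, the plus strand in each case, and capitals mark any match, on either strand, to the CCAAT box, to the TATA box as TATAAA, or to the GC box as GGGCGG. Col1a2 lies at chr6:4505368-4505617, Col3a1 at chr1:45311288-45311537 and Lamb3 at chr1:193301744-193301993.
Col1a2: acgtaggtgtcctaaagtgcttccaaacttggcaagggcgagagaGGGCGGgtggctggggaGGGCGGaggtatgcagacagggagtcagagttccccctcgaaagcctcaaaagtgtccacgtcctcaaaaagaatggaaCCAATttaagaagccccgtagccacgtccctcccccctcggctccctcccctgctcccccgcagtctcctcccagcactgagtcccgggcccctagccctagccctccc
Col3a1: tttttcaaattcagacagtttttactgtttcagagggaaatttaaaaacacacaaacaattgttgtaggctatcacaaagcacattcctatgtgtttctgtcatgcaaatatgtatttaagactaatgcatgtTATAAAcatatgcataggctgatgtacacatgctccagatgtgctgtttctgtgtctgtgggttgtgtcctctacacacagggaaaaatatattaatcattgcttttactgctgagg
Lamb3: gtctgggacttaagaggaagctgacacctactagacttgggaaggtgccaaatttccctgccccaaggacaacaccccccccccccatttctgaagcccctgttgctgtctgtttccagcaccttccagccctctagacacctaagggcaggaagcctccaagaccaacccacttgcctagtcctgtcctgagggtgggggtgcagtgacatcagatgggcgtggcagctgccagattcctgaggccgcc
The Col1a2 window held 1 CCAAT and 2 GGGCGG matches, the Col3a1 window 1 TATAAA match, and the Lamb3 window none of the 3 motifs. RefSeq windows were matched for 44 members, 49 windows in all. Of these, 28.6% held the CCAAT box, 12.2% the TATA box and 53.1% the GC box, against 33.8%, 12.4% and 32.7% of all 32851 windows. A match is a description of the letters and not a binding site. The starts of Col4a1 and Col4a2, the paired chains of the common type IV collagen trimer, lie 21 bases apart on opposite strands.

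Some eWAT libraries held transcripts of male germ cells, and this touches every eWAT value. Spermatid genes (4 in number) reached a summed FPKM of 92413 for ND 1 and 11231 for HR 2. The sum was 2282 for ND 3, 1738 for HP 1 and between 7.47 and 128 for the other 5. Epididymal markers (7 genes) summed to 19729 in ND 1 and 1559 in HP 2, and to at most 13.5 in the rest. The matrix genes together reached 4713 to 8803 FPKM in 7 of the eWAT libraries, but 1338 FPKM in ND 1 and 1945 FPKM in HR 2. In liver the matrix sum was 425 to 590 FPKM, the spermatid genes were listed at 0 throughout, and skeletal muscle markers summed to 98.9 in HP 2 and 19.9 in HP 3 against at most 0.955 elsewhere. The tissue labels held: 4 adipocyte markers summed to 3533 FPKM or more in every eWAT library, and 4 hepatocyte markers to 15621 or more in every liver library. The lowest hepatocyte sum was that of liver HP 3, where albumin (Alb) was listed at 0 FPKM. In every other liver library Alb had 21466 FPKM or more. The cause of the 0 was not tested.

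The eWAT fit over all 9 libraries called no member in any comparison at an adjusted p of 0.05 (limma on log2(FPKM + 1), Benjamini-Hochberg over all genes tested). At an unadjusted p under 0.05 there were 18 of 51 members in HP against ND, 1 in HR against ND and 2 in HP against HR. By the same rule 11.4%, 2.72% and 4.71% of all 14430 genes passed. At the adjusted p the background was 2.07% of genes called higher and 0.0416% called lower in HP against ND, and 0% in either direction in the other comparisons. Each eWAT result is therefore also given over the 7 libraries without ND 1 and HR 2, where 47 members were tested. In that fit HP had 3 libraries, and ND and HR had 2 each.

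In 35 of the 65 members ND 1 and HR 2 were both below the other 7 eWAT libraries, in 14 both were above them, and 16 fell into neither set. The same counts were not made over all genes, so these do not set the matrix genes apart from others. Col22a1, a collagen of tissue junctions, had 667 FPKM in ND 1, 163 in HR 2, 23.2 in ND 3, 5.25 in HP 1 and 1.25 in ND 2. It stood at 0.125 FPKM or less in the other 4 eWAT libraries, so its order followed that of the spermatid genes apart from the lowest 4. Col20a1 had 85.1 FPKM in ND 1 and 11.3 in HR 2 and at most 2.36 elsewhere. Col2a1, the collagen of cartilage, had 18.6 in HR 2 and 6.13 in ND 1 and at most 1.74 elsewhere. Col9a3 had 16.6 FPKM in ND 1 and 6.38 in HR 2, and Col6a4 25.2 and 4.26. The cell source of these transcripts was not tested.

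**Figure D1:**
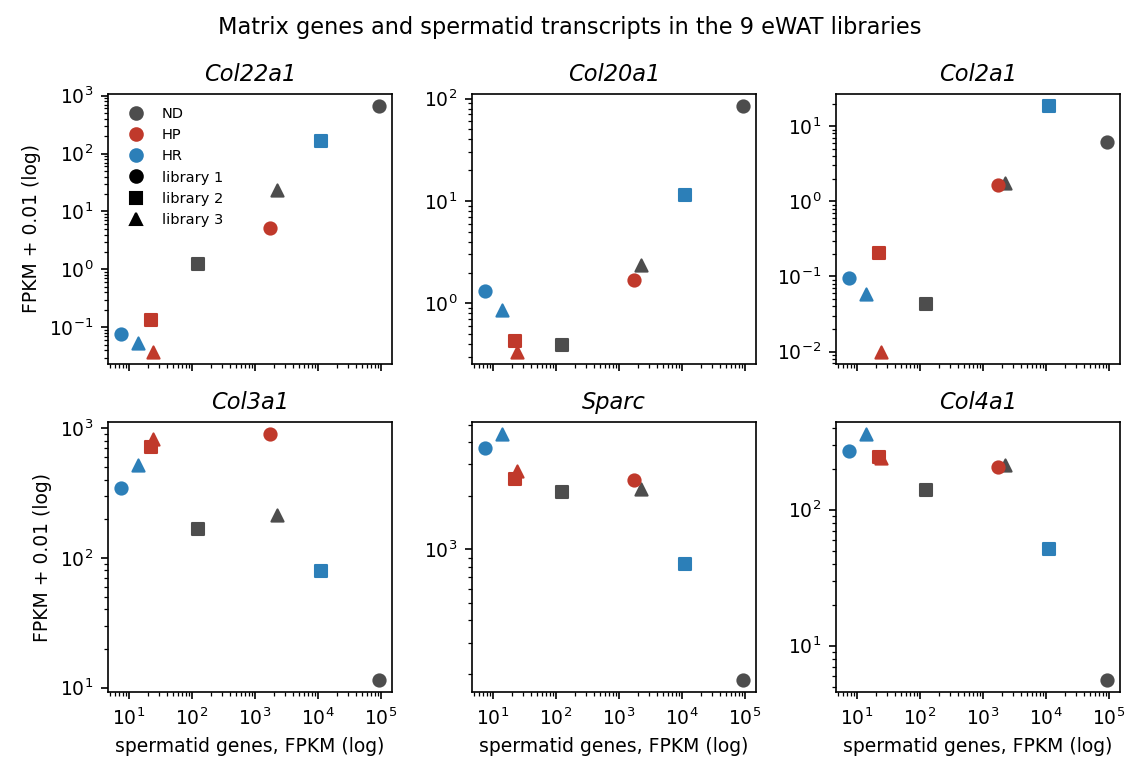
FPKM of 6 matrix genes (vertical, log scale, with 0.01 added) against the summed FPKM of 4 spermatid genes (horizontal, log scale) in the 9 eWAT libraries. Colours mark the groups and symbols the library numbers; Col22a1 climbs from 0.0281 FPKM to 667 in ND 1, while Col3a1, Sparc and Col4a1 are at their lowest in ND 1.

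A ratio formed within a library does not change when all matrix RNA is diluted equally. The summed FPKM of the 11 fibrillar collagens was divided by that of the 19 basement membrane genes, and the ratio is given as log2. The eWAT values were -0.94, -0.64 and -0.57 for ND 1 to ND 3, -0.26, -0.14 and -0.10 for HR 1 to HR 3, and 1.05, 0.69 and 0.89 for HP 1 to HP 3. The 3 groups did not overlap, and ND 1 and HR 2 lay with their own groups. Equal dilution cannot be assumed for ND 1, however. Its ratio of Col3a1 to Col1a1 was 1.37, against 4.79 and 3.73 in ND 2 and ND 3. In HR 2 that ratio was 3.11, against 3.09 and 3.61 in HR 1 and HR 3. Basement membrane transcripts were thus the more abundant of these classes in every ND and HR library, and fibrillar transcripts in every HP library. HP exceeded ND by 1.59 on the log2 scale, which is 3.02-fold, HP exceeded HR by 1.04 and HR exceeded ND by 0.55. Each of these had an exact two-sided permutation p of 0.1, the smallest that 3 against 3 libraries allow.

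The same ratio was far lower in liver, where Col18a1 makes up most of the basement membrane sum. It was -2.76, -2.20 and -2.78 in ND, -2.15, -1.52 and -1.23 in HP, and -2.40, -2.87 and -3.09 in HR. HP lay above both other groups, by 0.95 over ND and 1.15 over HR (exact permutation p of 0.1 for each), although HP 1 was only just above ND 2. HR and ND overlapped, with a difference of -0.20 (exact permutation p of 0.5). Without the most abundant member of each class (Col5a3 and Col18a1) the HR difference was 0.78 in place of -0.20.

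**Figure D2:**
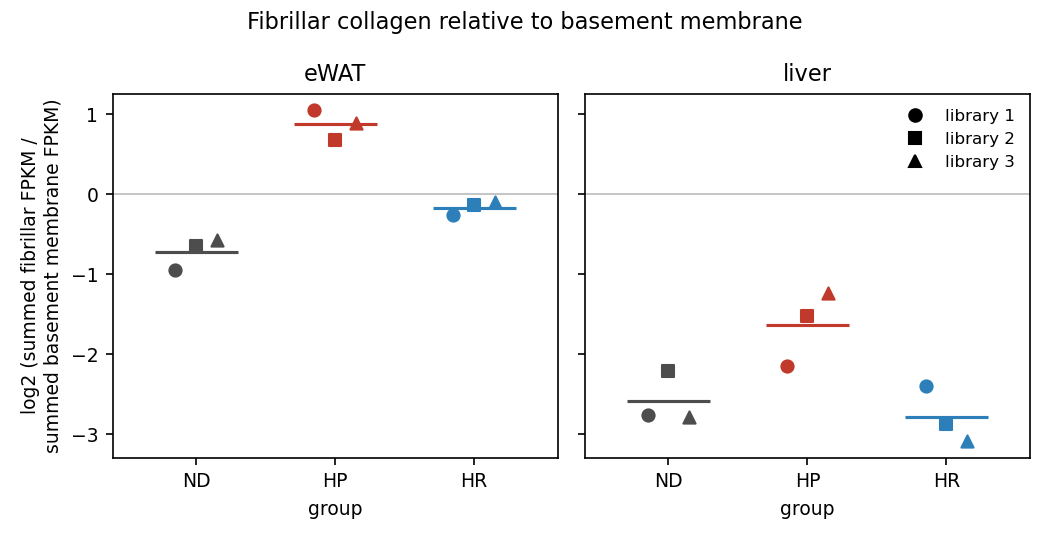
Log2 ratio of summed fibrillar collagen FPKM to summed basement membrane FPKM (vertical) by group for eWAT (left) and liver (right); points are libraries, shaped by library number, and bars are group means of 3. All eWAT HP libraries lie above 0 and all ND and HR libraries below it, and all liver libraries lie between -3.09 and -1.23.

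In eWAT over 7 libraries, HP was higher than ND in most fibrillar collagens, in 4 collagen VI chains (Col6a1, Col6a2, Col6a3 and Col6a5) and in some fibril-binding proteins, and no laminin chain rose. In all, 18 members rose and 2 fell among 47 tested. The background in that comparison was 15.7% of genes higher and 7.4% lower. By class, 5 of 7 fibrillar collagens rose, 0 of 16 basement membrane genes rose and 2 fell, and 13 of 24 other members rose. The median log2 difference was 1.25 for the fibrillar class, -0.12 for the basement membrane class and 0.87 for the others, against 0.01 for all genes. In bulk tissue, fewer cells of a type and less RNA per cell cannot be told apart.

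Type I and type III collagen are the main fibril formers of connective tissue. Col1a1, the alpha 1 chain of type I, had 34.8 and 57.3 FPKM in ND 2 and ND 3, 227, 160 and 218 in HP 1 to HP 3, and 113 and 144 in HR 1 and HR 3. The 2 libraries with spermatid RNA had 8.30 (ND 1) and 25.6 (HR 2). Among the 7 other libraries every HP value was above both HR values, and these above both ND values, but HR 2 lay below ND 2 and ND 3. Col1a1 rose by 2.13 on the log2 scale in HP (SE 0.26, adjusted p = 0.00192, limma) and by 1.49 in HR (SE 0.28, adjusted p = 0.0384). Over all 9 libraries the HP difference was 2.90 (SE 0.81, adjusted p = 0.153).

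Col3a1, the single chain of type III collagen, was the most abundant fibrillar transcript. It had 167 and 214 FPKM in ND 2 and ND 3, 895, 715 and 818 in HP, and 347 and 520 in HR 1 and HR 3, with 11.4 in ND 1 and 79.7 in HR 2. It rose by 2.09 in HP (SE 0.21, adjusted p = 0.00101) and by 1.17 in HR (SE 0.24, adjusted p = 0.0471, limma), the latter in 1 of 7 fits that each left out 1 library. HP and HR did not overlap in the 7 libraries, yet their difference of 0.92 did not pass (adjusted p = 0.0551). Col1a2, the partner of Col1a1, had 102 and 128 FPKM in ND 2 and ND 3, 278 to 356 in HP, and 171 and 230 in HR 1 and HR 3. It rose by 1.48 in HP (adjusted p = 0.0024), and in HR the difference was 0.79 (adjusted p = 0.0979).

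Type V collagen sits inside type I fibrils and limits their width. Its chains did not move alike. Col5a2 had 35.1 and 39.4 FPKM in ND 2 and ND 3 and 86.9 to 95.5 in HP, a rise of 1.25. Col5a1 rose by 0.78 in HP and by 0.98 in HR, which passed in 3 and 1 of 7 fits that each left out 1 library. Col5a3 had 86.1 and 103 FPKM in ND 2 and ND 3, 94.7 to 125 in HP and 150 and 176 in HR 1 and HR 3. Its differences were 0.20 in HP (adjusted p = 0.428) and 0.78 in HR (adjusted p = 0.0648), so the HR libraries were the highest and the other groups overlapped.

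Within libraries the balance of chains also differed. Col1a1 FPKM divided by Col1a2 FPKM was 0.342 and 0.448 in ND 2 and ND 3, 0.575 to 0.656 in HP and 0.657 and 0.626 in HR 1 and HR 3. ND 1 gave 0.613 and HR 2 gave 0.608. The paired chains Col4a1 and Col4a2 had ratios of 0.810 to 1.14 in the same 7 libraries, and Col6a1 and Col6a2 of 0.952 to 1.14. In ND 1 these 2 ratios were 0.620 and 1.77, outside those ranges, and in HR 2 they were 0.883 and 1.06. No test was made on these ratios.

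Collagen VI forms beaded filaments between basement membranes and fibrils and is abundant in fat. Col6a1 had 108 and 114 FPKM in ND 2 and ND 3, 276, 234 and 234 in HP and 217 and 288 in HR 1 and HR 3. It rose by 1.15 in HP (SE 0.16, adjusted p = 0.00304) and by 1.16 in HR (SE 0.17, adjusted p = 0.0161). HP and HR overlapped, at a difference of -0.02. Col6a2 rose by 1.26 and 1.31. Col6a3, whose C-terminal fragment is the adipokine endotrophin, had 31.0 and 22.2 FPKM in ND 2 and ND 3, 74.6, 61.8 and 72.0 in HP and 35.7 and 46.2 in HR 1 and HR 3, and rose by 1.37 in HP (adjusted p = 0.00331). In HR its difference of 0.61 did not pass (adjusted p = 0.189).

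Glycoproteins and small proteoglycans bind fibrils and growth factors, and of these Postn, Lum, Bgn and Fn1 rose in HP. Postn encodes periostin, a matricellular protein of tissue repair. It had 43.3 and 45.7 FPKM in ND 2 and ND 3, 165, 137 and 150 in HP and 73.0 and 77.4 in HR 1 and HR 3, with no overlap between the groups in these 7 libraries. Postn rose by 1.73 in HP (SE 0.12, adjusted p = 0.000199), by 0.74 in HR (adjusted p = 0.0282), and was higher in HP than in HR by 0.99 (adjusted p = 0.0177, limma). Lum, which encodes the keratan sulfate proteoglycan lumican, had 39.4 and 25.5 FPKM in ND 2 and ND 3, 141 to 153 in HP and 47.1 and 68.6 in HR 1 and HR 3. It rose by 2.19 in HP (adjusted p = 0.000992) and exceeded HR by 1.37 (adjusted p = 0.0267).

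Bgn, biglycan, rose by 1.30 in HP, from 153 and 152 FPKM in ND 2 and ND 3 to 338 to 407. Decorin, its close relative, did not follow: Dcn had 784 and 596 FPKM in ND 2 and ND 3, 556 to 658 in HP and 511 and 496 in HR 1 and HR 3, with a difference of -0.18 in HP (adjusted p = 0.464). Fn1, fibronectin, which cells lay down before collagen, rose by 1.15 in HP, from 52.0 and 69.7 FPKM to 126 to 152. Fbn1, the core of microfibrils, had a difference of 0.79 that did not pass (adjusted p = 0.0607).

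Sparc, a collagen-binding protein of basement membranes, was the most abundant matrix transcript of eWAT. It had 2103 and 2175 FPKM in ND 2 and ND 3, 2456, 2486 and 2761 in HP, and 3713 and 4429 in HR 1 and HR 3. It rose by 0.92 in HR (adjusted p = 0.043), while the HP difference was 0.26 (adjusted p = 0.308). HP lay below HR by 0.66, which did not pass (adjusted p = 0.0673), although the groups did not overlap among the 7 libraries. The rise in HR passed in 1 of 7 fits that each left out 1 library.

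Cross-linking enzymes split. Loxl1 had 10.6 and 18.1 FPKM in ND 2 and ND 3 and 30.9 to 42.3 in HP, a rise of 1.37 (adjusted p = 0.00854). Loxl2 had 7.61 and 7.16 in ND 2 and ND 3, 13.4 to 13.6 in HP and 6.92 and 8.35 in HR 1 and HR 3. It rose by 0.79 against ND and was higher than in HR by 0.76 (adjusted p = 0.0302). Lox itself had 64.4 and 54.9 FPKM in ND 2 and ND 3, 47.7 to 73.6 in HP and 55.9 and 54.7 in HR 1 and HR 3. Its groups overlapped in all 3 comparisons. Of the less abundant collagens, Col8a1, Col12a1, Col14a1 and Col6a5 rose in HP by 1.47, 1.51, 0.78 and 1.28. When 1 of the 7 libraries was left out in turn, the rise passed in all 7 fits for Col8a1 and Col12a1. It passed in 4 of 7 for Col14a1 and in 1 of 7 for Col6a5. Col8a1, a short-chain network collagen, was also higher in HP than in HR, at 9.31 to 15.2 FPKM against 3.70 and 4.88 (log2 difference 1.31, adjusted p = 0.0284).

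The 2 members that fell in HP were laminins. Lama4, the alpha chain of laminins around adipocytes and vessels, had 61.2 and 52.6 FPKM in ND 2 and ND 3, 30.8 to 36.0 in HP and 41.1 and 49.5 in HR 1 and HR 3. The groups did not overlap in these libraries, and HP was lower than ND by a log2 difference of -0.79 (SE 0.14, adjusted p = 0.00947). Lamb2 had 50.3 and 71.5 FPKM in ND 2 and ND 3, 32.6 to 34.8 in HP and 65 and 60.4 in HR 1 and HR 3. HP was below ND by -0.83 (adjusted p = 0.0124) and below HR by -0.89 (adjusted p = 0.0302). Over 9 libraries these differences from ND were -0.39 for Lama4 and -0.04 for Lamb2 (adjusted p = 0.767 and 0.979). Lamb1 had a difference of -0.38 in HP (adjusted p = 0.0549) and Lamc1 of 0.10 (adjusted p = 0.601).

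Type IV collagen is the scaffold of basement membranes, and its Col4a2 chain was highest in HR over the 7 libraries. Col4a2 had 136 and 186 FPKM in ND 2 and ND 3, 224 to 237 in HP and 334 and 395 in HR 1 and HR 3. It rose by 1.19 in HR (SE 0.18, adjusted p = 0.0171), and the HP difference was 0.53 (adjusted p = 0.0587). Col4a1 had 139 and 213 FPKM in ND 2 and ND 3, 205 to 244 in HP and 271 and 359 in HR 1 and HR 3, with a difference of 0.86 in HR (adjusted p = 0.118). HR overlapped with the other groups for Col4a4, at 0.718 and 3.3 FPKM in ND 2 and ND 3 and 1.25 and 1.17 in HR 1 and HR 3, and for Col4a5. Col15a1 and Col18a1, proteoglycan-like collagens of the basement membrane zone, passed in no eWAT comparison, and Col18a1 had 59.6 to 91.9 FPKM over the 7 libraries.

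Lamb3, the beta chain of the epithelial laminin 332, was the other basement membrane gene that rose in HR. It had 2.20 and 3.08 FPKM in ND 2 and ND 3, 4.26, 4.25 and 3.84 in HP, and 8.85 and 9.35 in HR 1 and HR 3. It rose by 1.48 in HR (SE 0.19, adjusted p = 0.01), and HP lay below HR by -0.98 (adjusted p = 0.0291). ND 1 had 3.18 FPKM, close to the other ND libraries, and HR 2 had 2.49, below every HP library.

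In HR against ND over the 7 libraries, 10 members rose and 0 fell, against a background of 3.85% of genes higher and 0.291% lower. They were Col1a1, Col3a1, Col5a1, Col6a1, Col6a2, Col12a1, Postn, Sparc, Col4a2 and Lamb3. Few of these calls held when 1 of the 7 libraries was left out in turn. Col1a1, Col3a1, Col5a1, Col12a1 and Sparc each passed in 1 of the 7 such fits, Postn in 2, Col4a2 in 3, Lamb3 in 5, and Col6a1 and Col6a2 in 6. None of the 10 passed over all 9 libraries. The median over the 47 members was 0.43, against 0.02 for all genes. In HP against HR, 4 were higher (Postn, Lum, Col8a1 and Loxl2) and 2 lower (Lamb3 and Lamb2), against 4.21% and 2.25% of all genes. HP against ND and HR against ND share their 2 ND libraries. Leaving out any 1 of the 7 libraries moved the count of HR against ND by over 1.5 times, from 0 without HR 3 to 17 without ND 3. The count of HP against HR was 0 without HP 1, HP 3, HR 1 or HR 3, 2 without HP 2, 17 without ND 2 and 18 without ND 3.

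**Figure D3:**
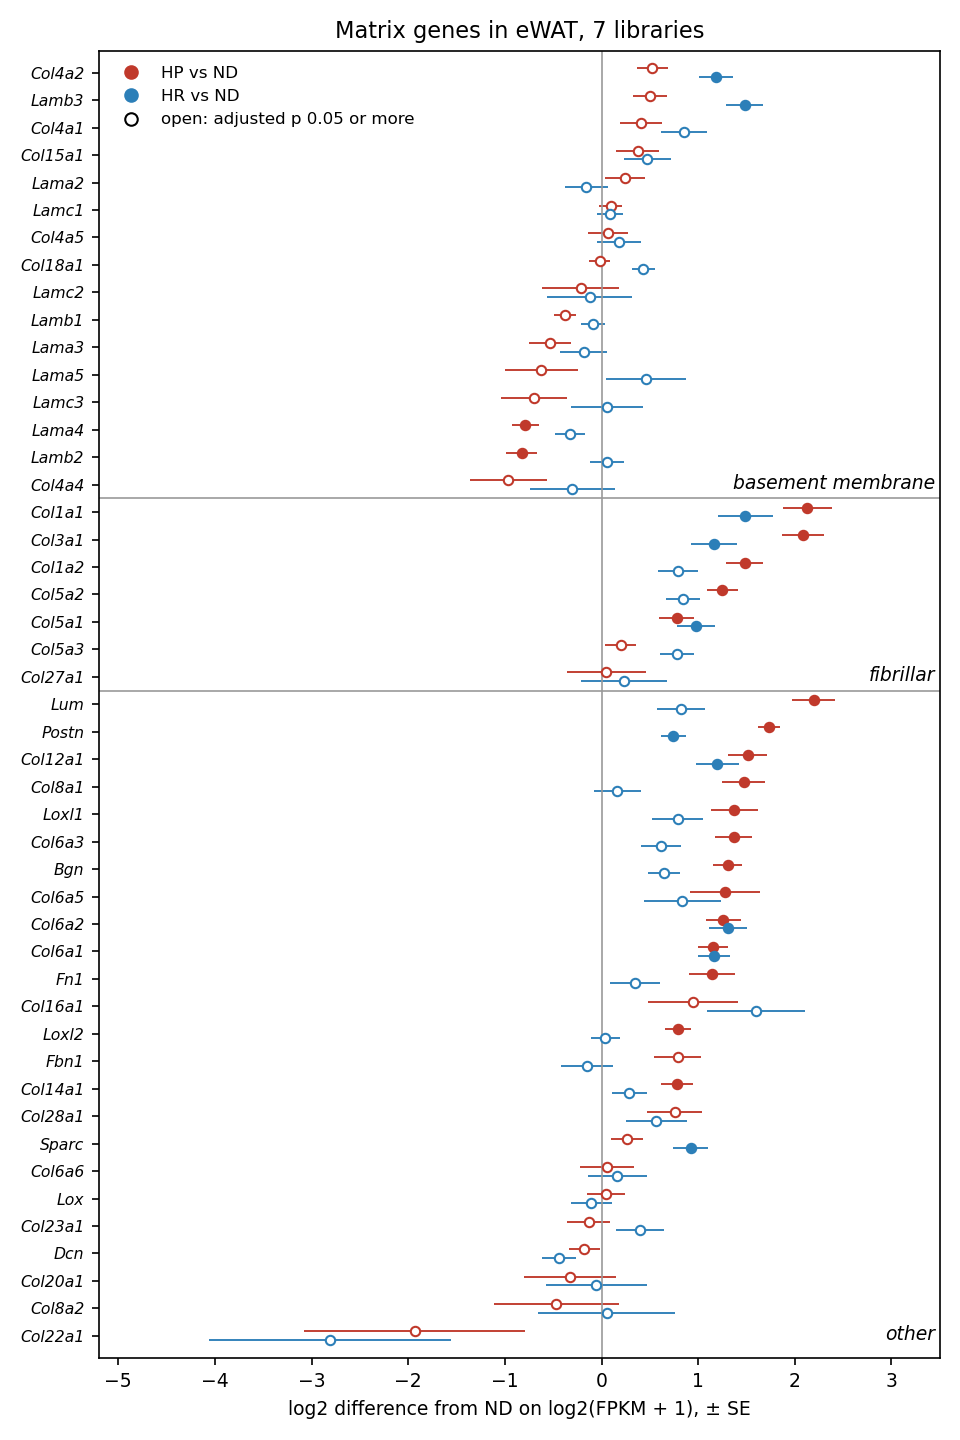
Log2 differences from ND on the log2(FPKM + 1) scale (horizontal, with SE) for the 47 members tested in eWAT over 7 libraries, grouped into basement membrane, fibrillar and other; red points are HP and blue points HR, filled where the adjusted p was under 0.05. Filled red points lie to the right among fibrillar and other members and to the left for Lama4 (-0.79) and Lamb2 (-0.83).

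Markers of other cells moved with these groups. All 7 macrophage markers rose in HP against ND over the 7 libraries, and their sum was 220 and 182 FPKM in ND 2 and ND 3, 1772 to 2338 in HP and 720 and 877 in HR 1 and HR 3. Of 10 fibroblast markers 4 rose and 1 fell, Gsn, which makes up most of the list's sum; that sum was 6068 and 5186 FPKM in ND 2 and ND 3 and 3121 to 3185 in HP. Among 4 adipocyte markers 3 fell, and among 6 tested mesothelial markers 3 fell, the latter summing to 30.4 and 44.0 FPKM in ND 2 and ND 3 and 9.80 to 14.8 in HP. No endothelial marker of 8 passed. Of all genes, 15.7% rose and 7.4% fell in HP against ND over the 7 libraries. No marker list was at 0 in eWAT. The part of these cells in the matrix differences was not tested.

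Collagen needs enzymes and chaperones that fold, process, cross-link and secrete it. Of 24 tested genes of this list in eWAT, 13 rose in HP and 0 fell over the 7 libraries, with a median of 0.56. For this and the next 3 lists, 15.7% of all genes rose and 7.4% fell in that comparison, with a median of 0.01. Colgalt1, which adds galactose to collagen, rose by 1.57. Pcolce2, an enhancer of procollagen processing, rose by 1.72, from 8.22 and 9.11 FPKM in ND 2 and ND 3 to 28.1 to 36.4 in HP. Serpinh1, the collagen chaperone HSP47, rose by 1.03, from 126 in both ND libraries to 231 to 281 in HP. In HR, 4 of the 24 rose, where 3.85% of all genes did, and between HP and HR none passed (5 at an unadjusted p under 0.05, limma).

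Of 19 TGF beta signalling genes 4 rose and 1 fell in HP, shares near those of all genes, and the median of the list was -0.03. Tgfb1, the fibrogenic ligand, had 8.92 and 10.6 FPKM in ND 2 and ND 3, 45.4 to 58.9 in HP and 26.3 and 27.5 in HR 1 and HR 3. It rose by 2.34 in HP and by 1.38 in HR, and it passed over all 9 libraries as well (log2 difference 2.45, adjusted p = 0.033, limma). Tgfbr1 rose by 1.31 in HP and Tgfbr3, the accessory receptor betaglycan, was lower by -0.87. Among 20 matrix receptors 7 rose and 0 fell in HP. Cd44, the hyaluronan receptor, rose by 3.69, Lair1, an inhibitory collagen receptor of leukocytes, by 3.18, and Mrc2, an endocytic collagen receptor, by 1.99.

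Of 20 other basement membrane and microfibril genes 8 rose and 3 fell in HP. Mfap5 and Mfap2, small proteins of microfibrils, rose by 1.26 and 1.72. Smoc1, a basement membrane glycoprotein, was lower by -1.21, at 56.8 to 68.7 FPKM in HP against 155 and 145 in ND 2 and ND 3. Eln, elastin, was lower in HP than in HR by -1.19, at 37.6 to 52.4 against 101 and 96.9 FPKM.

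In liver, HP had more type I and type III collagen transcripts and less Fn1 and Lamb3 than ND. Of 26 members tested, 9 rose and 2 fell in HP against ND, with a background of 17.6% of genes higher and 14.1% lower. The median of the members was 0.29, against -0.02 for all genes. Against HR, 10 were higher and 1 lower in HP, with a background of 7.2% and 3.94%. In HR against ND 0 rose and 1 fell, with a background of 2.28% and 0.969%. The count of 11 against ND was 7 without ND 1 or without HP 2, and the count of 11 against HR was 4 without HR 2, 5 without HP 2 and 7 without HP 3.

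Col3a1 had 2.41, 3.39 and 3.59 FPKM in ND, 7.15, 14.3 and 19.6 in HP and 2.36, 1.87 and 2.89 in HR. It rose by 1.74 in HP against ND (SE 0.28, adjusted p = 0.00197) and was higher than in HR by 2.03 (adjusted p = 0.00386, limma). Col1a1 had 0.797, 1.18 and 0.778 FPKM in ND, 1.6, 5.5 and 8.27 in HP and 0.562, 0.337 and 0.853 in HR. It rose by 1.5 (adjusted p = 0.0113, limma), but it was tested only because of HP, as 1 ND and 0 HR libraries reached 1 FPKM. Col1a2 had 1.91, 2.3 and 2.4 FPKM in ND, 3.33, 7.87 and 11.5 in HP and 1.15, 0.984 and 1.36 in HR, and rose by 1.29 (adjusted p = 0.00939). In each of these genes HP 1 was the lowest HP library, yet it lay above every ND and HR library.

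Sparc rose in liver by 1.00, from 11.4, 16 and 15.9 FPKM in ND to 23.8, 29.8 and 36.0 in HP, with 9.38, 8.12 and 13.2 in HR. Postn rose by 1.09, from 1.96, 2.54 and 2.32 to 4.94, 5.28 and 7.92. Col14a1, which decorates fibrils, rose by 0.75, Col6a3 by 0.83, Col16a1 by 0.67 and Lamc1 by 0.67 (adjusted p = 0.0496). The groups overlapped for Col6a3. Dcn had 64.8, 82.5 and 86.2 FPKM in ND, 74.2, 83.5 and 109 in HP and 44.8, 37.2 and 56.9 in HR. It was higher in HP than in HR by 0.93 (adjusted p = 0.0153), and HR was lower than ND by -0.75, which did not pass (adjusted p = 0.0597). Col6a2 passed in HP against HR, at 0.75. Lox, Loxl1 and Loxl2 did not reach the level needed for testing in liver. Lox had at most 0.326 FPKM.

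Skeletal muscle markers stood at 0.12, 98.9 and 19.9 FPKM in liver HP 1 to HP 3. The HP libraries with the most type I and III collagen thus also held muscle transcripts, but the amounts did not run in 1 order. Col1a1, Col1a2 and Col3a1 were higher in HP 3 (8.27, 11.5 and 19.6 FPKM) than in HP 2 (5.50, 7.87 and 14.3). Col6a3 and Col16a1 were higher in HP 2 (6.58 and 2.74 FPKM) than in HP 3 (4.66 and 1.45). Without HP 2 and HP 3, which leaves 1 HP library assumed to vary like the other groups, 1 member rose and 2 fell against ND (360 genes called of all tested). The 3 that passed were Lamb3 (-1.48, adjusted p = 0.00359), Fn1 (-0.79, adjusted p = 0.049) and Postn (0.86, adjusted p = 0.0477, limma). The difference from ND was 0.99 for Col3a1 (adjusted p = 0.0545), 0.70 for Sparc (adjusted p = 0.156) and 0.43 for Col1a2 (adjusted p = 0.194), and Col1a1 was not tested there. Against HR none passed in that fit (8 genes in all), with 1.28 for Col3a1 (adjusted p = 0.122), 1.17 for Sparc (adjusted p = 0.234), 1.00 for Col1a2 (adjusted p = 0.132) and -0.68 for Fn1 (adjusted p = 0.28). Hepatic stellate markers summed to 86.1 to 118 FPKM in ND, 98.2 to 127 in HP and 64.2 to 105 in HR. Ecm1 made up most of that sum, at 45.4 to 101 FPKM over the liver libraries, and Lrat was listed at 0 throughout. Of 7 stellate markers tested 0 rose and 1 fell in HP against ND over all liver libraries. That comparison called 17.6% of all genes higher and 14.1% lower. Of 5 tested fibroblast markers 1 rose, and the sum of all 10 was 29.8 to 37.2 FPKM in ND and 36.0 to 45.5 in HP. Both tested adipocyte markers rose in liver HP, the list summing to 36.7 to 64.8 FPKM in ND and 107 to 152 in HP. The part of these cells was not tested.

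Fibronectin is made by hepatocytes for plasma as well as by matrix cells. In liver Fn1 had 158, 124 and 149 FPKM in ND, 82.4, 69.2 and 82.4 in HP and 126, 139 and 133 in HR. HP lay below both other groups, by -0.87 against ND (SE 0.13, adjusted p = 0.0012) and by -0.76 against HR (adjusted p = 0.00721). HR and ND overlapped. Lamb3 was the sole member that passed in HR against ND in liver. It had 18, 17.2 and 18.5 FPKM in ND, 5.77, 6.01 and 6.33 in HP and 5.09, 4.92 and 4.59 in HR. The high-fat groups lay below ND by -1.42 in HP (SE 0.10, adjusted p = 5.66e-05) and by -1.69 in HR (SE 0.10, adjusted p = 5.45e-05, limma).

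Col18a1, the precursor of endostatin, was the most abundant liver member. It had 147, 144 and 165 FPKM in ND, 141, 137 and 142 in HP and 160, 163 and 180 in HR, and passed in no liver comparison. Col4a1 had 2.31 to 2.76 FPKM in ND and 2.27 to 4.91 in HP. Lamc1, the common gamma chain, had 2.74, 2.29 and 2.43 FPKM in ND and 2.77, 5.34 and 6.10 in HP. Col5a3 had 10.7 to 21.9 FPKM and Col27a1 5.2 to 11.4 over the 9 liver libraries, and Bgn 22.4 to 68.7. Of these, Lamc1 was the one that passed, in HP against ND.

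**Figure D4:**
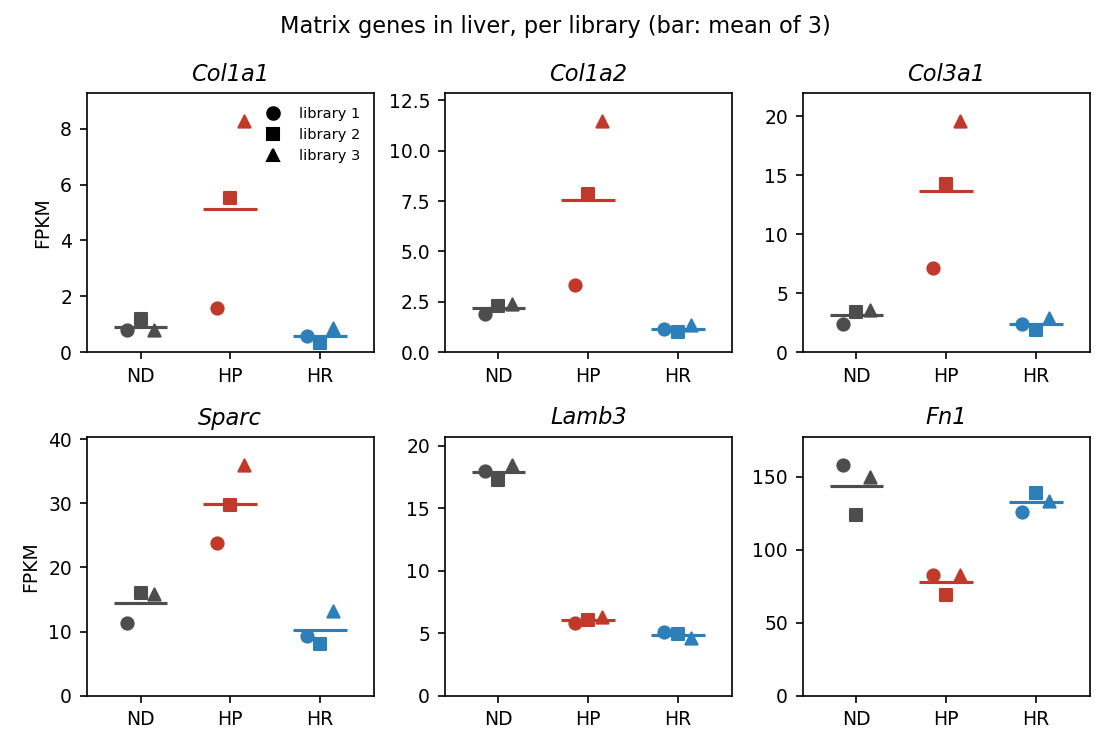
FPKM of 6 matrix genes in liver (vertical, from 0) by group; points are libraries, shaped by library number, and bars are means of 3. Col1a1, Col1a2, Col3a1 and Sparc are highest in HP, Fn1 is lowest in HP, and Lamb3 is at 17.2 to 18.5 FPKM in ND against 4.59 to 6.33 in both high-fat groups.

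Among the pathway genes of liver, Serpinh1 and Pcolce rose in HP by 1.27 and 1.11, with Crtap, a collagen prolyl hydroxylation partner, by 0.81. In that list 3 of 16 rose and 2 fell, shares near the 17.6% and 14.1% of all genes, which are also the background of the lists that follow. Of 13 TGF beta signalling genes 1 rose and 5 fell, among them Smad4 (-0.71) and Inhba (-0.88). Of 14 matrix receptors 1 rose, Cd36 (1.04), and 2 fell. Of 13 other basement membrane and microfibril genes 3 rose and 1 fell, and Emilin1 and Mfap4, elastic fibre glycoproteins, rose by 0.87 and 0.69. In HR against ND, where 2.28% of all genes rose and 0.969% fell, P4ha1 (-0.65) and Nid2 (-0.82) fell and Cd36 (0.71) rose.

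The diet responses of the tissues were compared as the eWAT difference from ND minus the liver difference from ND. A gene that does not reach the testing level in liver has little room to differ there, so members are counted among the 25 that reached it in both tissues. Col6a2 is among the 25 but reached 1 FPKM in 3 liver libraries only. Its liver range was 0.418 to 2.20 FPKM, so it too had little room there. Over all 18 libraries Lamb3 passed in HP, at 1.86 (adjusted p = 0.0252). With eWAT ND 1 and HR 2 left out, the value for HP was positive for 6 of the 25 (Bgn, Col6a2, Fn1, Lamb3, Lum and Postn) and negative for 1 (Lamb2). Of all 9997 genes at that level in both tissues, 15.5% and 11.4% were called in these directions. The largest values among the 25 were 2.07 for Lum (adjusted p = 0.00341), 2.02 for Fn1 (adjusted p = 9.3e-05) and 1.93 for Lamb3 (adjusted p = 1.94e-06, limma). Fn1 rose in eWAT and fell in liver, while Lamb3 had a difference of 0.50 in eWAT that did not pass (adjusted p = 0.0844) and fell in liver. For the type I and III collagens the difference between tissues did not pass. In HR the value was positive for 5 of the 25 (Col4a2, Col6a1, Col6a2, Lamb3 and Sparc) and negative for 0, against 4.58% and 1.7% of genes. Lamb3 had 3.17 (adjusted p = 2.71e-07): it rose in eWAT HR and fell in liver HR.

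Levels were also compared between the tissues. Of the 25 members at the testing level in both, 21 were higher in eWAT over the 18 libraries and 4 were lower, against 57.8% and 14.8% of 10100 genes. Sparc had the largest difference, 6.70 (SE 0.45, adjusted p = 5.9e-09), at 2875 ± 870 FPKM in the 7 eWAT libraries (SD, n = 7) and 18.2 ± 9.64 in liver (SD, n = 9). Col6a2 followed at 6.00, with 208 ± 79.1 and 0.971 ± 0.58 FPKM, and Col4a2 had 5.44. The 4 that were lower in eWAT were Col18a1 (-1.60), Col27a1 (-1.56), Fn1 (-1.04) and Lamb3 (-0.83). Col18a1 averaged 71.1 ± 12.0 FPKM in the 7 eWAT libraries and 153 ± 14.4 in liver. For Fn1 the difference was -0.41 without eWAT ND 1 and HR 2 (adjusted p = 0.00278, limma), and its order was not the same in each group. In HP every eWAT library had more Fn1 (126 to 152 FPKM) than every liver library (69.2 to 82.4). The order of Lamb3 varied too. Its FPKM was 8.85 and 9.35 in eWAT HR 1 and HR 3, above the liver HR libraries (4.59 to 5.09). In eWAT HR 2 it was 2.49, below them.

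The order of levels differed accordingly. In eWAT over 7 libraries, Sparc held 42.4% of the matrix sum, Dcn 8.85%, Col3a1 7.74% and Bgn 4.06%, and the order of Dcn and Col3a1 depended on the group. Dcn had more FPKM than Col3a1 in ND 2, ND 3 and HR 1, and less in HR 3 and in every HP library. In liver, Col18a1 held 30.8%, Fn1 23.8%, Dcn 14.3%, Bgn 9.33% and Sparc 3.66%. Ranges of neighbours in the liver order overlapped, from 137 to 180 FPKM for Col18a1 and 69.2 to 158 for Fn1.

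**Figure D5:**
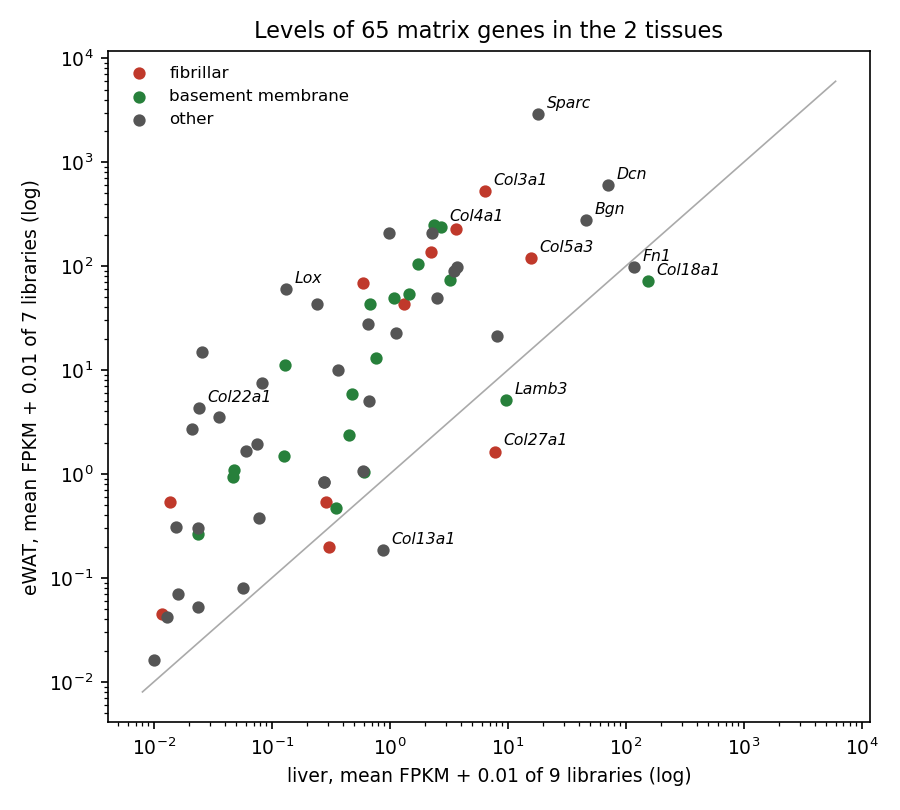
Mean FPKM of the 65 members in eWAT (vertical, 7 libraries without ND 1 and HR 2) against liver (horizontal, 9 libraries), both on log scales with 0.01 added; colours mark the class and the line marks equal levels. Most members lie above the line, and Col18a1, Fn1, Lamb3, Col27a1, Col24a1 and Col13a1 lie below it.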

How the data were processed

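The authors deposited 1 table of FPKM values for 18 libraries. The tools named are Cufflinks 2.1.1, STAR 2.4.0 and CASAVA 1.8.2, per the submitters' processing notes, without their roles. Genome build, annotation and strandedness: not given in the sources used here. FPKM carries no counts, so depth is unknown and no counting interval was given. Symbols came from GENCODE M21 for 22671 of 23474 identifiers, and promoter windows from RefSeq.

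Genes that reached 1 FPKM in 3 or more libraries of a tissue were tested in R 4.3.3 by limma 3.58.1 on log2(FPKM + 1), with a variance trend, all groups of a tissue in 1 fit, two-sided, and Benjamini-Hochberg adjustment over all tested genes at 0.05. Folds on this scale understate changes of low genes. The libraries are not stated to be separate mice, so the p-values reflect only how far these samples spread, possibly for technical reasons. The tissue differences used all libraries in 1 fit. Ratios were tested by exact permutation. The HP against ND test was run on simulated data, with 100 genes changed by 1 and 100 by 2 on the log2 scale. Over 9 eWAT libraries it recovered 0 and 0 of them, over 7 eWAT libraries 53 and 85, and in liver 74 and 98. The changed genes were drawn from tested genes with a mean log2(FPKM + 1) over 2. Recovery was not measured for lower members, such as Col1a1 (mean 2.21 FPKM) and Col6a3 (2.51) in liver. Figures used matplotlib 3.10.9.

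The members and lists were chosen with earlier results of these data known. Named by rule were the 4 most abundant members of each class, all members called over 9 libraries, up to 6 called per class and comparison over 7 libraries, a fixed set of 25, and up to 4 genes per pathway list and comparison. Col22a1, Col20a1, Col2a1, Col9a3 and Col6a4 were named after their values were seen, as were Col6a5, Col14a1, Col24a1 and the windows shown. The fit over 7 eWAT libraries was chosen after the spermatid transcripts had been seen.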

Additional observations from a re-analysis of the deposited data

Results flagged for a closer look

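The difference between the diet responses of the tissues was tested as an interaction (limma, adjusted p under 0.05), and values are the response in eWAT minus the response in liver on the log2 scale. Over all 18 libraries HP against ND differed for Lamb3 (1.86) and Col12a1 (1.36). Without eWAT ND 1 and HR 2 it was positive for Lum (2.07), Fn1 (2.02), Lamb3 (1.93), Col8a1 (1.43), Col12a1 (1.38), Col6a5 (1.28), Bgn (1.14), Col5a2 (1.02), Loxl1 (0.95), Fbn1 (0.85), Col6a2 (0.78), Postn (0.65) and Loxl2 (0.52), and negative for Lama4 (-0.85) and Lamb2 (-0.74). In HR against ND it was positive for Lamb3 (3.17), Col6a2 (1.58), Sparc (1.39), Col6a1 (1.39), Col4a2 (1.36) and Col12a1 (1.25). Lama4 and Lamb2 fell in eWAT HP. Of these members, Col5a2, Col6a5, Col8a1, Col12a1, Fbn1, Lama4, Loxl1 and Loxl2 did not reach the testing level in liver, where differences on this scale are small. Col6a2 reached 1 FPKM in 3 liver libraries only. For Lamb3 and Fn1, whose levels in liver were higher, the eWAT and liver responses had opposite signs.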

How the results depend on the processing

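The numbers of members called depended on the eWAT libraries. Over 9 eWAT libraries, library weights gave 16, 1 and 14 members (HP against ND, HR against ND, HP against HR) in place of 0, and leaving out ND 1 and HR 2 gave 20, 10 and 6. Leaving out the 4 libraries with the most spermatid transcripts, an alternative added after seeing the data like all those on the 7 libraries, gave 26, 15 and 12. Leaving out 1 library gave 0 to 2 in HP against ND, and 0 in the others. Weights were estimated gene by gene because the default estimation did not converge. From the 20, 10 and 6 of 7 libraries, no filter gave 5 in HR against ND and 1 in HP against HR, library weights 2 and 18, and a length and GC correction 2 in HR against ND. Leaving out 1 library gave 15 to 25, 0 to 17 and 0 to 18. In liver, HR against ND gave 2 in place of 1 with quantile normalization and with library weights. Without HP 2 and HP 3, HP against ND gave 3 in place of 11, and HP against HR 0 in place of 11. Leaving out 1 library gave 7 to 14, 1 to 2 and 4 to 15. For the tissue difference, HP against ND had 2 members over all libraries, 1 with a pseudocount of 0.1 or median-of-ratios scaling, 0 with quantile normalization, 16 with library weights, 15 without ND 1 and HR 2, and 11 without the 4 spermatid libraries, and 0 to 5 without 1 library. HR against ND had 0, and 1 with median-of-ratios scaling, 11 with library weights, 6 without ND 1 and HR 2, 19 without the 4 spermatid libraries, and 0 to 2 without 1 library. Between eWAT and liver, leaving out 1 library gave 45 to 50 members. Where an arm kept 1 library, it was assumed to vary like the other groups. The cause was not tested.

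Libraries with the same number were not treated as paired. Between groups of a tissue, deviations of same-numbered libraries correlated from -0.84 to 0.62 in eWAT and from -0.35 to 0.43 in liver, over 9 pairs each. Whether eWAT and liver libraries of the same number share a mouse was not examined. The fits across tissues treated them as separate. With the replicate block, 7 eWAT libraries gave 20, 0 and 0 members, and 12, 0 and 0 with the length and GC correction as well. In liver the block gave 10, 2 and 13. It gave 1 for the tissue difference in HP against ND, and with the length and GC correction 0, and 29 between eWAT and liver.

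The log2 ratio of fibrillar to basement membrane transcripts kept its sign in every alternative except liver HR against ND, where leaving out the most abundant member of each class gave 0.78 in place of -0.20. Without 1 library it ranged from 1.48 to 1.69, 0.44 to 0.63 and 0.95 to 1.14 in eWAT (HP against ND, HR against ND, HP against HR). In liver it ranged from 0.75 to 1.21, -0.40 to -0.01 and 0.95 to 1.41. Liver HP 2 and HP 3, the libraries with muscle transcripts, were not left out together for this ratio. The remaining HP 1 had a log2 ratio of -2.15, against -2.76, -2.20 and -2.78 in ND 1 to ND 3. None of the 59 called member results changed sign under any alternative, and 27 passed whichever single library was left out. Of these, the 15 in eWAT did not pass over all 9 libraries. For the 12 in liver, leaving out 1 library does not cover muscle transcripts held by both HP 2 and HP 3. Without both, the difference from ND was smaller for Col1a2 (0.43), Col3a1 (0.99) and Sparc (0.70), while for Lamb3 it was -1.48.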
